A study of Mus musculus with 12 samples.

Results

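The 10 genes described here encode the MyD88 and IRAK arm of Toll-like receptor signalling: Myd88, Tirap, Irak1, Irak2, Irak3, Irak4, Tollip, Map3k7, Ikbkb and Ikbkg. They were chosen by name, as every spot of the array that carries their gene symbol, out of 50090 gene names on the array. All 10 were on the array, with 19 probes between them, and 18 of these probes were tested. Each gene is represented below by its brightest probe, the one with the highest mean level over the 12 arrays, and the other probes are given beside it. All 10 brightest probes were tested. For 9 of the 10 genes the brightest probe was well above background on all 12 arrays, and no spot of any member was saturated.

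The study asked how costimulation through CD86 changes resting B (RB) cells that receive a signal through TLR2. RB cells were isolated from spleens of BALB/c mice, labelled as females 6 weeks old, by removal of CD43 positive cells, and were cultured for 4 h in 6 conditions. These were medium alone (unstimulated), the TLR2 ligand Pam2CSK4, an antibody to CD86 (anti-CD86), Pam2CSK4 with the anti-CD86 antibody (TLR2.CD86), an antibody to CD40 (anti-CD40), and Pam2CSK4 with the anti-CD40 antibody (anti-CD40.Pam2CSK4). Each condition had 2 one-colour arrays, labelled replicates 1 and 2, and the p-values below measure the spread between these arrays. Where the 2 arrays of a condition lay on different slides, that spread includes the difference between slides unless slide is a block. The paper calls the replicates biological, and the labels do not say whether they are separate mice or cultures. Cells with an isotype control antibody were not analysed here, so an effect of the CD86 or CD40 antibody and an effect of adding any antibody cannot be told apart. All cells were wild type, and no array measured a cell that lacked a member. The protein and phosphorylation of the members were not measured.

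Toll-like receptors signal by bringing adaptor proteins to the inner face of the membrane. TLR2 pairs with TLR1 or TLR6, the bridging adaptor TIRAP places MyD88 at the receptor, and MyD88 assembles the kinases IRAK4, IRAK1 and IRAK2. These recruit TRAF6, whose ubiquitin chains activate the kinase TAK1, the product of Map3k7, and TAK1 activates the IkB kinase complex, in which IKKβ (Ikbkb) is a catalytic subunit and NEMO (Ikbkg) the regulatory subunit. NF-kB is then released from its IkB inhibitors. IRAK-M, the product of Irak3, and Tollip are brakes on this chain, and Irak3 is best known from macrophages made tolerant to endotoxin. CD40 also leads to NF-kB, through TRAF proteins and without MyD88.

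The arrays lay on 2 slides, each scanned in its own run. Slide 1 carried 8 arrays, among them both unstimulated and both anti-CD40.Pam2CSK4 arrays, and slide 2 carried 4 arrays, which were replicate 2 of the remaining 4 conditions. All 10 members had a lower level on slide 2 than on slide 1 within those 4 conditions, with a median difference of -0.25 on the log2 scale, against -0.13 over all 31601 probes tested. The slide term passed the test for 7 of the 10 members and for 57.2% of all probes. Slide and replicate number coincide in those 4 conditions, so a difference between slides and one between replicates cannot be told apart. Comparisons among Pam2CSK4, anti-CD86, TLR2.CD86 and anti-CD40 hold 1 array of each slide on both sides, and anti-CD40.Pam2CSK4 against unstimulated lies on slide 1. The remaining comparisons do not balance the slides, and values from the fit with slide as a block, named as such, are given for the main differences of the members. Values not so named are without a block.

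The probe sequences matter here because 2 members, Irak3 and Irak4, carry the calls, and the Irak3 probes moved together while the Irak4 probes did not. Each probe has 60 bases, and its first 30 bases are printed 5′ to 3′ in lower case, as the deposited scanner files give them. No pair of probes of the same member shared a stretch of 15 bases, and shorter overlaps were not searched for. Where in the transcript each one lies was not analysed here.
Irak3, brightest probe: ttaccaccggcacttaatgctagtctttct
Irak3, second probe by brightness: gagaatttgaatggtgcagattagcagcaa
Irak3, dimmest probe: tggataatgtcccaagtattccagtagaag
Irak4, brightest probe: tcggttccacagcttctcgttccatgaact
Irak4, second probe by brightness: caacatcaccaaactatagtgaacttaaga
The share of G and C over the whole probe was 45%, 40% and 36.7% for the Irak3 probes and 48.3% and 38.3% for the Irak4 probes. All 3 Irak3 probes are listed for 1 RefSeq transcript, and both Irak4 probes for another.

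Of the 10 members, Irak3 and Irak4 differed among the 6 conditions (moderated F test in limma, adjusted p = 0.0150 and 0.0177), and for 20.1% of all probes tested the same test was passed. Irak3, the inhibitory kinase, was lowest in RB cells given anti-CD40 and highest in those given TLR2.CD86. Irak4, the kinase nearest to MyD88, was lowest in unstimulated cells and highest with anti-CD40.Pam2CSK4, on its brightest probe and not on its second. With slide as a block, 8 of the 10 members passed, all but Tollip and Ikbkg, beside 59.9% of all probes. The count of 2 in 10 is near the share of all probes.

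**Figure D1:**
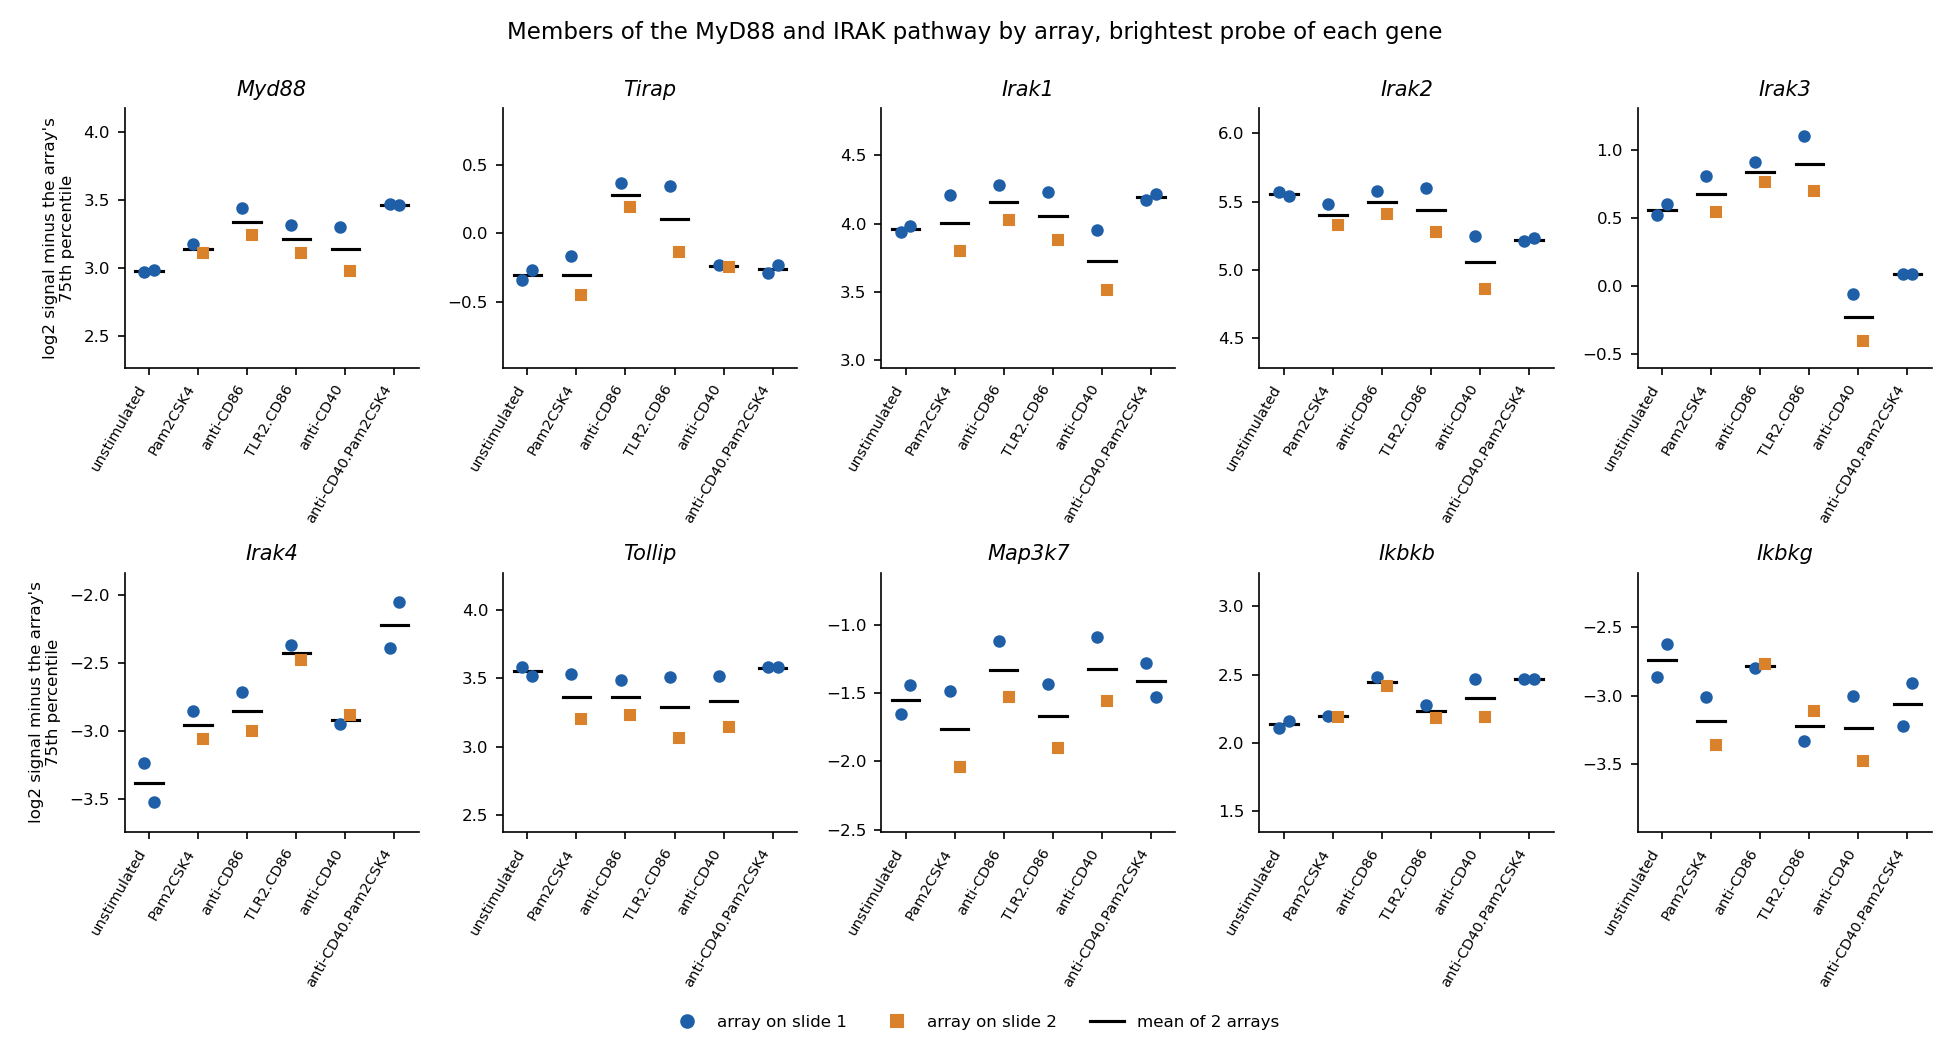
Level of the 10 members on the 12 arrays, as log2 processed signal minus the array's 75th percentile, for the brightest probe of each gene. Points are single arrays coloured by slide, bars are the mean of the 2 arrays of a condition, and every panel spans a range of the same width. Irak3 lies below its unstimulated level on the 4 arrays with the anti-CD40 antibody, and the slide 2 arrays lie below their slide 1 partners in most panels.

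Irak3 encodes IRAK-M, a member of the family whose kinase domain is taken to be inactive and which holds IRAK1 and IRAK4 at the receptor complex. Its level, as log2 signal minus the array's 75th percentile, was 0.52 and 0.60 in unstimulated cells, 0.81 and 0.54 with Pam2CSK4, and 0.91 and 0.76 with anti-CD86. It was 1.10 and 0.70 with TLR2.CD86, -0.06 and -0.40 with anti-CD40, and 0.09 and 0.09 with anti-CD40.Pam2CSK4. The 4 arrays with the anti-CD40 antibody were the lowest 4 of the 12, and they did not overlap with any other array. With anti-CD40 the level fell from 0.56 ± 0.06 to -0.23 ± 0.24 (SD, n = 2 each), a log2 difference of -0.79 (SE 0.18) or 0.580 times the unstimulated signal (limma, adjusted p = 0.0248). Under the slide block the difference was -0.64 (SE 0.08, adjusted p = 0.00131), and on slide 1 alone it was -0.62 (adjusted p = 0.0267). The call was not made when unstimulated replicate 1, unstimulated replicate 2 or anti-CD40 replicate 2 was left out (adjusted p = 0.115, 0.145 and 0.120), with differences of -0.83, -0.74 and -0.62.

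Irak3 was lower with the anti-CD40 antibody than with the anti-CD86 antibody. Between anti-CD40 and anti-CD86, a comparison that holds 1 array of each slide on both sides and was added after the values had been seen, the log2 difference was -1.06 (SE 0.18), or 0.480 times (limma, adjusted p = 0.0103; 10% of all probes passed). It was -0.97 on slide 1 and -1.15 on slide 2. The call was lost without anti-CD86 replicate 1 (-0.98, adjusted p = 0.0773). In the presence of Pam2CSK4 the difference between anti-CD40.Pam2CSK4 and TLR2.CD86 was -0.81 (SE 0.18, adjusted p = 0.0236; 12.2% of all probes passed), and -0.96 with slide as a block (adjusted p = 0.000305). This call was lost without TLR2.CD86 replicate 1 (-0.61, adjusted p = 0.0970) and without anti-CD40.Pam2CSK4 replicate 1 or 2 (adjusted p = 0.123 and 0.125). Irak3 was the only member called in these comparisons without the block.

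Against unstimulated cells, the upward differences of Irak3 did not pass without the block: 0.12 with Pam2CSK4, 0.27 with anti-CD86 and 0.34 with TLR2.CD86 (adjusted p = 0.756, 0.404 and 0.240). With the block, those of anti-CD86 (0.42, SE 0.08, adjusted p = 0.00952) and TLR2.CD86 (0.48, SE 0.08, adjusted p = 0.00450) passed, and that of Pam2CSK4 did not (0.26, adjusted p = 0.0735). The value of -0.47 for anti-CD40.Pam2CSK4 against unstimulated cells had an adjusted p of 0.106 without the block and 0.00220 with it. In the order of mean levels, from TLR2.CD86 through anti-CD86, Pam2CSK4, unstimulated and anti-CD40.Pam2CSK4 to anti-CD40, none of the 4 pairs of neighbours that were compared directly passed the test without the block. The pair of unstimulated and anti-CD40.Pam2CSK4, which passed with it, is given above, and of the other pairs TLR2.CD86 against anti-CD86 gave 0.06 (adjusted p = 0.972), Pam2CSK4 against unstimulated 0.12 and anti-CD40.Pam2CSK4 against anti-CD40 0.31 (adjusted p = 0.377).

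The other Irak3 probes gave the same order of the antibodies. The second probe by brightness lay between -2.90 and -1.43 and the dimmest between -3.52 and -2.19, and their levels correlated with those of the brightest probe over the 12 arrays at r = 0.918 and 0.952, as a description over arrays that share slides and conditions. The difference of anti-CD40 from unstimulated was -0.72 and -0.73 (adjusted p = 0.0261 and 0.0295), and that from anti-CD86 was -0.92 and -1.16 (adjusted p = 0.0129 and 0.00676). The values of the dimmest probe rest on signals near background. It was -3.48 and -3.52 with anti-CD40, where the lowest level counted as well above background was between -4.22 and -3.44. It was well above background on 11 of the 12 arrays, both anti-CD40 arrays among them. On the second probe TLR2.CD86 also exceeded unstimulated cells without a block, by 0.65 (SE 0.17, adjusted p = 0.0456).

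**Figure D2:**
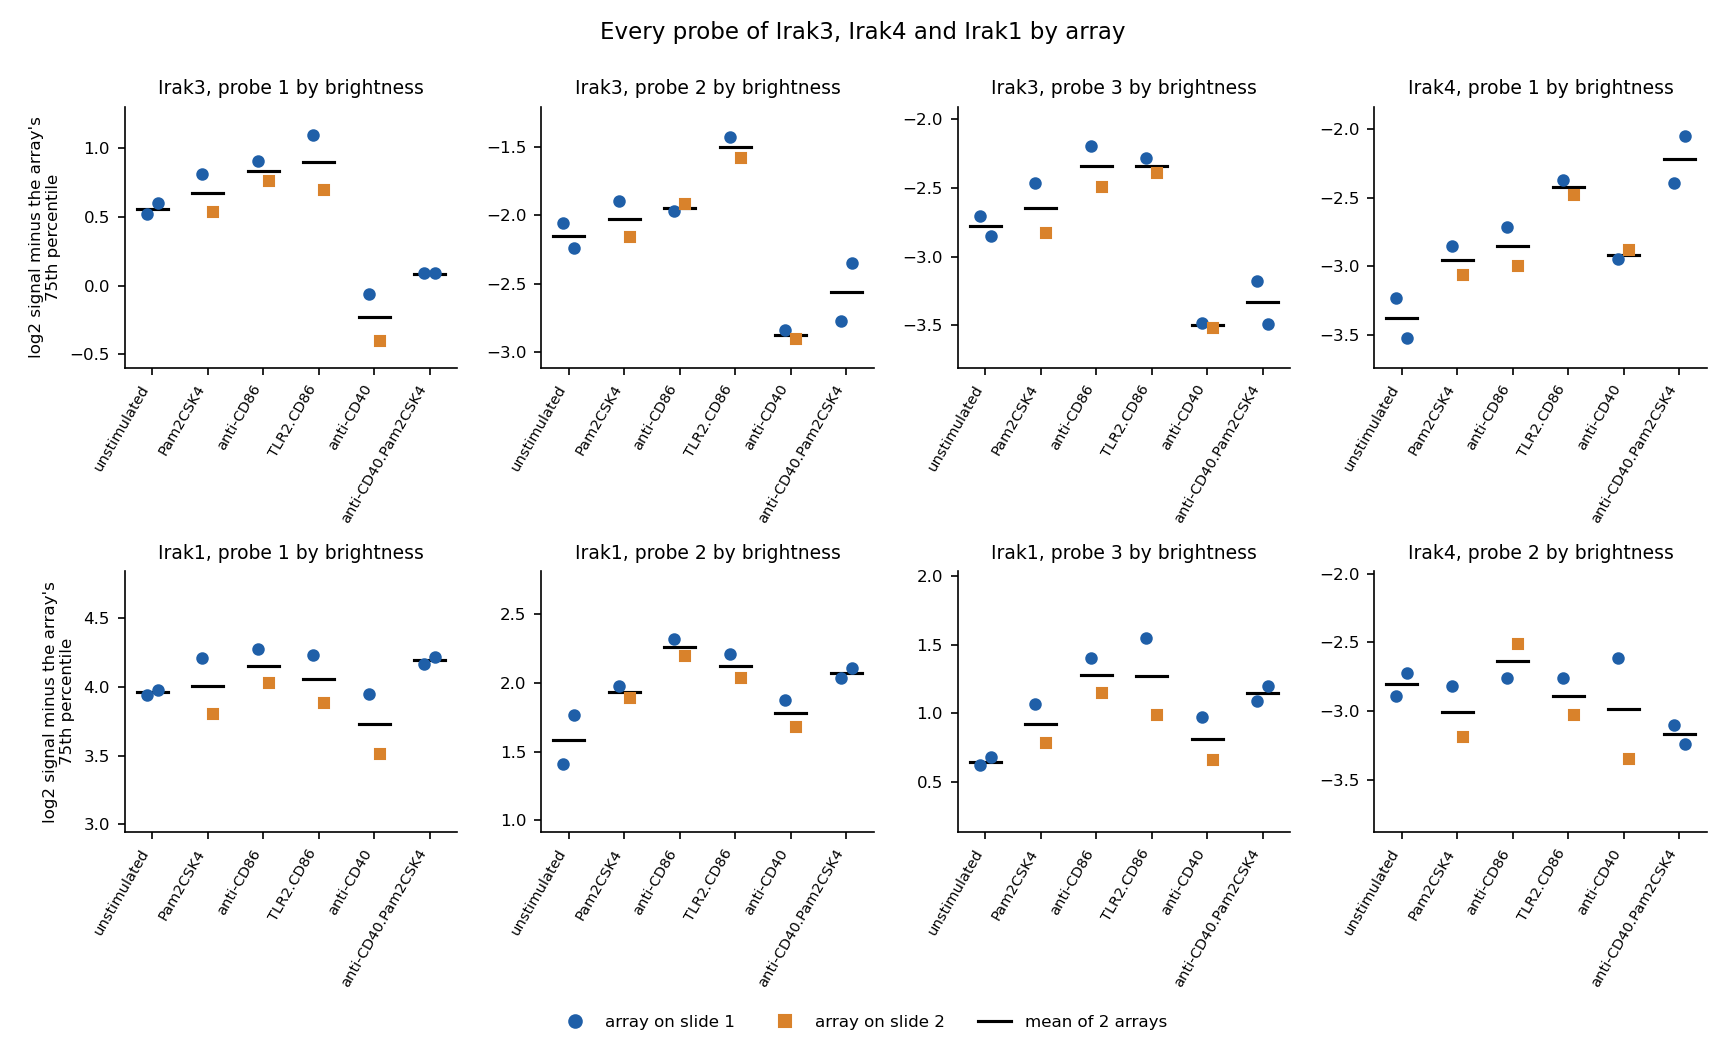
Level on each array for every probe of Irak3 (top row, left), Irak1 (bottom row, left) and Irak4 (right column), as log2 signal minus the array's 75th percentile. Points are arrays coloured by slide and bars the mean of 2 arrays. The 3 Irak3 probes fall together with anti-CD40, with differences from unstimulated of -0.79, -0.72 and -0.73, whereas the brighter Irak4 probe rises with anti-CD40.Pam2CSK4 by 1.16 and the dimmer one does not.

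Genes whose brightest probe followed Irak3 most closely over the 12 arrays were Mast3, a microtubule-associated serine/threonine kinase (r = 0.992), Mta3, a subunit of the NuRD chromatin complex (r = 0.990), the clone 4931429I11Rik (r = 0.990), Mavs, the mitochondrial adaptor of cytosolic RNA sensors (r = 0.986), and a noncoding transcript listed as n195222_u191789_AK080002_mRNAlike (r = 0.985). They were picked as the 5 highest Pearson correlations among 24080 genes and are a description of likeness in these arrays. With anti-CD40 they differed from unstimulated cells by -0.63, -0.50, -0.80, -0.65 and -0.71 on the log2 scale, and with anti-CD86 by 0.36, 0.23, 0.30, 0.35 and 0.22. Picked for likeness to Irak3 on these same arrays, they share its directions by selection and are no separate evidence.

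Irak3 is high in monocytes and macrophages, so the markers of those cells were read beside it. Of 9 B cell markers, 3 were called among the 6 conditions (20.1% of all probes). Against unstimulated cells 2 were called with anti-CD40 and 1 with anti-CD40.Pam2CSK4, and between anti-CD40 and anti-CD86 2 were called, with a median difference of -0.19. The summed level of the 9 ran from 8.33 to 8.98 over the arrays and was highest with anti-CD40.Pam2CSK4. All 9 B cell markers, Cd79a, Cd79b and Ms4a1 among them, were well above background on every array. So were 11 of the 12 monocyte, macrophage and neutrophil markers on the array. Their summed level on the log2 scale ran from 8.95 to 9.04 in unstimulated cells, 8.63 to 8.80 with Pam2CSK4, 8.54 to 8.67 with anti-CD86, 8.45 to 8.63 with TLR2.CD86, 8.49 to 8.71 with anti-CD40 and 8.77 to 8.94 with anti-CD40.Pam2CSK4. Of those 12 markers, against unstimulated cells, none was called with Pam2CSK4 (0.136% of all probes) and 1 with anti-CD86 (2.14%). The counts were 5 with TLR2.CD86 (10.6%), 4 with anti-CD40 (16.7%) and 5 with anti-CD40.Pam2CSK4 (18.2%). The same shares stand beside the counts of the other marker lists against unstimulated cells. The median marker had a negative difference in all 5 conditions, at -0.27 with Pam2CSK4 and -0.46, -0.51, -0.52 and -0.49 with the conditions that contained an antibody, while the difference of Irak3 was negative in the 2 conditions with the anti-CD40 antibody. Between anti-CD40 and anti-CD86 none of the 12 was called (10% of all probes) and their median difference was -0.01, where Irak3 differed by -1.06. In a bulk sample, fewer cells of a type and less RNA per cell cannot be told apart. The defining markers of T cells were above background as well, for 8 of 9 on every array. Their summed level was 5.09 to 5.107 in unstimulated cells and 4.423 to 4.935 on the stimulated arrays. Of these 9, 1 was called with TLR2.CD86 against unstimulated cells and none in the other 4 conditions. The 6 dendritic cell markers were above background on every array, and their summed level split the arrays as Irak3 did, in the opposite direction: it ran from 2.98 to 3.24 on the 4 arrays with the anti-CD40 antibody and from 2.06 to 2.42 on the other 8. Of these 6 markers, against unstimulated cells, 1 was called with Pam2CSK4 and 1 with anti-CD86. With TLR2.CD86, anti-CD40 and anti-CD40.Pam2CSK4, 2 were called in each. The median differences were 0.15, 0.17, -0.30, 0.61 and -0.18 in that order. The summed level adds the signals before the log2 is taken, so the brightest markers weigh most in it. With anti-CD40.Pam2CSK4 the sum was higher than in unstimulated cells while the median marker was lower. Of 6 NK cell markers, 3 were called with TLR2.CD86, 3 with anti-CD40 and 1 with anti-CD40.Pam2CSK4, and their summed level was 3.95 to 3.98 in unstimulated cells and 3.13 to 3.75 on the stimulated arrays. The part of these cells in the level of Irak3 was not tested.

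Irak4 encodes the kinase that starts the MyD88 complex. On its brightest probe the level was -3.23 and -3.52 in unstimulated cells, -2.85 and -3.06 with Pam2CSK4, and -2.71 and -3.00 with anti-CD86. It was -2.37 and -2.48 with TLR2.CD86, -2.95 and -2.88 with anti-CD40, and -2.39 and -2.05 with anti-CD40.Pam2CSK4. These are dim signals: the lowest level that counted as well above background was between -4.22 and -3.44 on the 12 arrays, and the probe was well above background on 1 of the 2 unstimulated arrays and on all 10 stimulated arrays. The differences from unstimulated cells therefore rest on a baseline that lay partly at background. The 4 arrays with Pam2CSK4 and an antibody were the highest 4. TLR2.CD86 exceeded unstimulated cells by 0.95 (SE 0.17) (limma, adjusted p = 0.0195), and anti-CD40.Pam2CSK4 did so by 1.16 (SE 0.17) (adjusted p = 0.00370). Anti-CD40.Pam2CSK4 also exceeded Pam2CSK4 alone by 0.73 (adjusted p = 0.0344; 9.9% of all probes passed). Under the slide block these were 1.02, 1.16 and 0.67 (adjusted p = 0.00441, 0.00119 and 0.0213).

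The second Irak4 probe did not follow. Its level was -2.89 and -2.72 in unstimulated cells, -2.76 and -3.03 with TLR2.CD86, and -3.10 and -3.24 with anti-CD40.Pam2CSK4, and over the 12 arrays it correlated with the brightest probe at r = -0.370. The mean levels of the probes were close, at -2.79 and -2.92, so the choice of the brightest probe decided the call, and the median over both probes gave differences of 0.432 and 0.395 for TLR2.CD86 and anti-CD40.Pam2CSK4 (adjusted p = 0.115 and 0.125). The TLR2.CD86 call was also lost without either unstimulated or either TLR2.CD86 array (adjusted p from 0.0611 to 0.145), on slide 1 alone (1.01, adjusted p = 0.0572) and with the normexp background correction (0.33, adjusted p = 0.124). The call between anti-CD40.Pam2CSK4 and Pam2CSK4 was made in 9 of its 22 alternatives and was lost without either array of anti-CD40.Pam2CSK4, Pam2CSK4 or unstimulated cells (adjusted p from 0.0540 to 0.220). The rise of Irak4 thus holds for 1 dim probe.

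Myd88 is the adaptor shared by nearly all Toll-like receptors and by the IL-1 receptor. Its level was 2.97 and 2.99 in unstimulated cells, 3.18 and 3.11 with Pam2CSK4, and 3.44 and 3.24 with anti-CD86. It was 3.32 and 3.11 with TLR2.CD86, 3.30 and 2.98 with anti-CD40, and 3.47 and 3.46 with anti-CD40.Pam2CSK4. Only the anti-CD40 array on slide 2 fell within the unstimulated range, and the other 9 stimulated arrays lay above it. The largest difference, of anti-CD40.Pam2CSK4 from unstimulated cells on the same slide, was 0.49 (SE 0.14), or 1.40 times, and missed the threshold (limma, adjusted p = 0.0510). Under the slide block it passed (adjusted p = 0.00158), as did those of anti-CD86 (0.46), TLR2.CD86 (0.33) and anti-CD40 (0.26; adjusted p = 0.00601, 0.0133 and 0.0284), while that of Pam2CSK4 alone did not (0.26, adjusted p = 0.0644).

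Tirap, the adaptor that brings MyD88 to TLR2 and TLR4, showed higher values with the anti-CD86 antibody. Its level was -0.34 and -0.27 in unstimulated cells, -0.17 and -0.45 with Pam2CSK4, 0.37 and 0.19 with anti-CD86, 0.35 and -0.14 with TLR2.CD86, -0.23 and -0.25 with anti-CD40, and -0.29 and -0.23 with anti-CD40.Pam2CSK4. The arrays with the anti-CD86 antibody were the highest 4, with 1 of them close to the remaining arrays. The difference of anti-CD86 from unstimulated cells was 0.59 (SE 0.18, adjusted p = 0.106), and 0.71 with slide as a block (SE 0.11, adjusted p = 0.00700). That of TLR2.CD86 was 0.41 (adjusted p = 0.161), and 0.53 with the block (adjusted p = 0.0138). With the block, Tirap was also lower with anti-CD40 than with anti-CD86, by -0.52 (adjusted p = 0.0113; 0.107 without it), and lower with anti-CD40.Pam2CSK4 than with TLR2.CD86, by -0.49 (adjusted p = 0.0189; 0.205 without it). No difference of Tirap passed without the block.

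Irak1 is the kinase that IRAK4 phosphorylates and that hands the signal to TRAF6. Its brightest probe lay between 3.51 and 4.28 on the 12 arrays, with 3.94 and 3.98 in unstimulated cells, 4.28 and 4.03 with anti-CD86 and 3.95 and 3.51 with anti-CD40. The conditions overlapped, and no difference passed without the block. With it, anti-CD86 (0.38, adjusted p = 0.00869), TLR2.CD86 (0.28, adjusted p = 0.0192) and anti-CD40.Pam2CSK4 (0.23, adjusted p = 0.0209) exceeded unstimulated cells. The dimmer probes showed wider separation. On the second probe by brightness, all 10 stimulated arrays but anti-CD40 replicate 2 lay above both unstimulated arrays, and the differences were 0.67 for anti-CD86, 0.54 for TLR2.CD86 and 0.49 for anti-CD40.Pam2CSK4 (adjusted p = 0.0602, 0.0563 and 0.0578; with the block 0.00669, 0.00948 and 0.0124). On the dimmest probe they were 0.63, 0.62 and 0.50 without the block, none of them called (adjusted p = 0.129, 0.0901 and 0.138), and 0.81, 0.80 and 0.50 with it (adjusted p = 0.00304, 0.00188 and 0.00446).

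Irak2, which sustains the signal after IRAK1 has been used up, had lower values with the anti-CD40 antibody. Its level was 5.57 and 5.54 in unstimulated cells, 5.48 and 5.33 with Pam2CSK4, 5.58 and 5.41 with anti-CD86, and 5.60 and 5.28 with TLR2.CD86. It was 5.25 and 4.86 with anti-CD40 and 5.21 and 5.23 with anti-CD40.Pam2CSK4. The 4 arrays with the anti-CD40 antibody were the lowest 4, though TLR2.CD86 replicate 2 was near them. The difference of anti-CD40 from unstimulated cells was -0.50 (SE 0.17, adjusted p = 0.0748), and -0.37 with slide as a block (SE 0.08, adjusted p = 0.0110). That of anti-CD40.Pam2CSK4 was -0.33 (adjusted p = 0.198), and with the block its adjusted p was 0.0103. Like Irak3, Irak2 was lower with anti-CD40 than with anti-CD86, by -0.44 with the block (adjusted p = 0.00484), and the difference did not pass without it (0.148). It passed in 4 of its 21 alternatives, the others being quantile normalization with and without the block and the normexp background.

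Tollip, an adaptor that binds IRAK1 and damps the receptor complex, was the member with the smallest spread of group means, at 0.29, and its F statistic was 0.73 (adjusted p = 0.690). Its level lay between 3.06 and 3.58, and the 4 lowest arrays were the 4 of slide 2. Its dimmer probes ranged from -1.44 to -0.59 and from -3.34 to -2.46, and did not correlate with the brightest one (r = -0.0929 and 0.116). No comparison called Tollip with or without the block.

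Downstream of the adaptors, Map3k7, Ikbkb and Ikbkg showed no call without the block. Map3k7 (TAK1) lay between -2.04 and -1.09, and its slide 2 minus slide 1 difference of -0.48 was the largest slide term among the members. With the block it was 0.46 higher than in unstimulated cells with anti-CD86 (adjusted p = 0.0259) and 0.46 higher with anti-CD40 (adjusted p = 0.0188). Ikbkb (IKKβ) was 2.11 and 2.16 in unstimulated cells, and all 10 stimulated arrays, from 2.18 to 2.48, lay above both. Its difference from unstimulated cells was 0.33 with anti-CD40.Pam2CSK4, where both arrays were on the same slide (SE 0.12, adjusted p = 0.0938; with the block, 0.00966). With the block it was 0.37 with anti-CD86 (adjusted p = 0.0145) and 0.25 with anti-CD40 (adjusted p = 0.0428). Ikbkg (NEMO) was dim, between -3.48 and -2.62, and its differences of up to -0.50 had standard errors of 0.21 (adjusted p from 0.135 to 0.921 against unstimulated cells). Its other probes were above background on 7 and 3 of the 12 arrays, and the second of these was not tested.

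**Figure D3:**
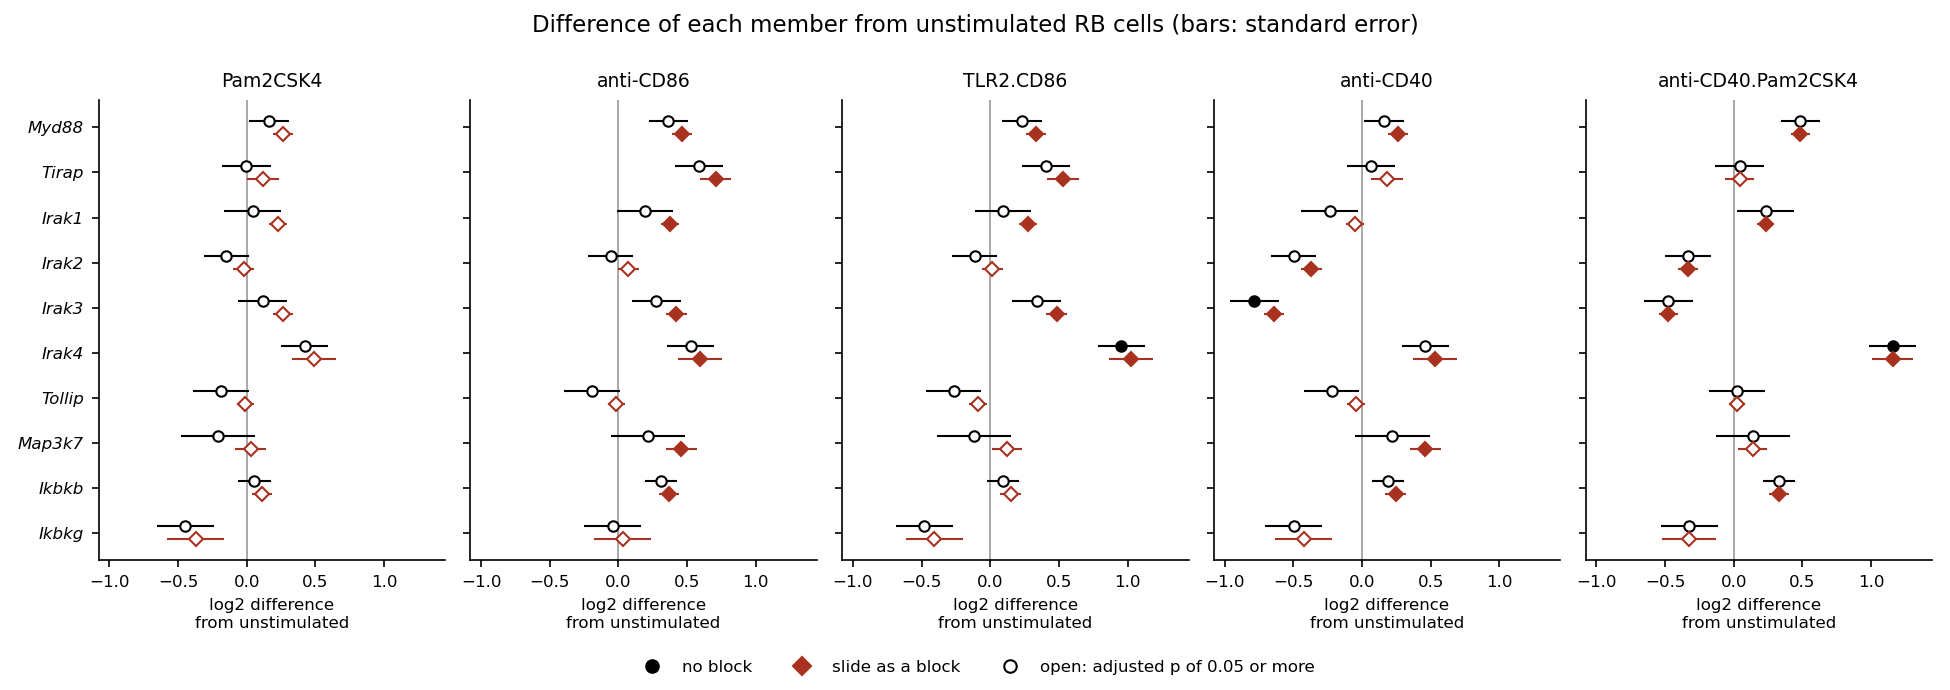
Log2 difference of each member from unstimulated RB cells in the 5 stimulated conditions, with its standard error. Black circles are from the fit without a block, red diamonds from the fit with slide as a block, and filled symbols have an adjusted p under 0.05. Without the block 3 symbols are filled, Irak4 with TLR2.CD86 and with anti-CD40.Pam2CSK4 and Irak3 with anti-CD40.

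Counted by comparison, against unstimulated cells, none of the 10 members was called with Pam2CSK4 (0.136% of all probes) or with anti-CD86 (2.14%) by limma, and 1 was called with TLR2.CD86 (10.6%), 1 with anti-CD40 (16.7%) and 1 with anti-CD40.Pam2CSK4 (18.2%). A call of 1 in 10 is near these shares. At an unadjusted p under 0.05 the counts were 1, 4, 3, 4 and 4, beside 15.7%, 23.2%, 30.4%, 33.7% and 33.9% of all probes. With slide as a block the counts were 0 with Pam2CSK4 (10.8% of all probes), 7 with anti-CD86 (28.3%), 5 with TLR2.CD86 (34.9%), 6 with anti-CD40 (37.1%) and 6 with anti-CD40.Pam2CSK4 (47.4%). The 7 members called with anti-CD86 were Myd88, Tirap, Irak1, Irak3, Irak4, Map3k7 and Ikbkb, all higher. The median member differed from unstimulated cells by 0.25 with anti-CD86 without the block, beside -0.05 over all probes, and by 0.40 beside -0.05 with the block. With anti-CD40 the median member differed by -0.08 without the block, beside -0.01 over all probes, and by 0.07 with it, so that its sign turned. These comparisons share the unstimulated arrays.

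Where Pam2CSK4 was added to a costimulus, or a costimulus to Pam2CSK4, 1 member passed, Irak4 between anti-CD40.Pam2CSK4 and Pam2CSK4. No member was called between TLR2.CD86 and Pam2CSK4 (0.0633% of all probes), between TLR2.CD86 and anti-CD86 (0.225%), or between anti-CD40.Pam2CSK4 and anti-CD40 (2.9%) by limma, where 2, 1 and 1 had an unadjusted p under 0.05, beside 10.3%, 8.82% and 19.7% of all probes. Among these the largest difference was that of Irak4 between anti-CD40.Pam2CSK4 and anti-CD40, at 0.70 (SE 0.17, adjusted p = 0.0811; 0.0456 with the block). The interaction terms, which ask whether the combination departs from the sum of its parts, called no member for Pam2CSK4 and anti-CD86 (0.019% of all probes) or for Pam2CSK4 and anti-CD40 (1.15%), and none had an unadjusted p under 0.05 in either. Their estimates ran from -0.29 to 0.11 and from -0.02 to 0.62 over the 10 members without the block, with 4 and 9 above 0. With the block they ran from -0.39 to -0.03 and from -0.35 to 0.47, with 0 and 5 above 0.

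Promoter windows of 250 bases before the annotated start were found for 9 of the 10 members in the RefSeq table for GRCm38.p6, Ikbkb not among them. They were searched on both strands for the NF-kB consensus, the AP-1 site TGANTCA and the PU.1 box GAGGAA, which 7.25%, 6.75% and 23.3% of all 32851 windows hold. The NF-kB consensus was matched in 2 members, Irak1 and Map3k7, the AP-1 site in 1 (Ikbkg) and the PU.1 box in 2 (Map3k7 and Ikbkg). No match to any of them was found in the windows of Myd88, Tirap, Irak2, Irak3, Irak4 or Tollip. A match is a run of letters and no evidence of binding.

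Other genes of the pathway were read from a list of 76, of which 67 were tested by their brightest probe. Among them 25 (beside 20.1% of all probes) differed among the 6 conditions, and 1, 1, 12, 19 and 22 differed from unstimulated cells with Pam2CSK4, anti-CD86, TLR2.CD86, anti-CD40 and anti-CD40.Pam2CSK4, beside 0.136%, 2.14%, 10.6%, 16.7% and 18.2% of all probes. Of those, 1, 1, 7, 12 and 15 were higher. With slide as a block the counts were 23, 22, 34, 37 and 43, beside 10.8%, 28.3%, 34.9%, 37.1% and 47.4% of all probes. The differences of single pathway genes below are without the block. Of the 9 genes not tested, Tlr3, Tlr5, Tlr8, Cd180, Il1rap, Ticam2, Sarm1, Peli3 and Irak1bp1, the brightest probe was not well above background on both arrays of any condition.

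Among the receptors, Tlr1, the partner of TLR2 for triacylated lipopeptides, rose in 3 conditions. It was 0.59 and 0.54 in unstimulated cells, 1.62 and 1.35 with TLR2.CD86, 2.41 and 2.18 with anti-CD40, and 2.34 and 2.49 with anti-CD40.Pam2CSK4. The differences were 0.92, 1.73 and 1.85 (limma, adjusted p = 0.0157, 0.00110 and 0.000287). Tlr6, the partner for diacylated lipopeptides such as Pam2CSK4, did not pass among the 6 conditions (F adjusted p = 0.0556) but was 0.94 higher with anti-CD40 than with anti-CD86 (adjusted p = 0.0248), at levels of 1.57 and 1.37 with anti-CD40, 0.82 and 0.22 with anti-CD86 and 1.00 and 0.96 in unstimulated cells. Tlr2 itself and the co-receptor Cd14 differed among the conditions (adjusted p = 0.0248 and 0.0405). No single comparison of TLR2.CD86 with anti-CD86 or of anti-CD40.Pam2CSK4 with anti-CD40 passed for either gene without the block (adjusted p = 0.311 and 0.0707 for Tlr2, 0.525 and 0.126 for Cd14). The levels of Tlr2 were 2.10 and 1.83 with anti-CD86 and 2.19 and 1.83 with anti-CD40, 2.88 and 2.71 with Pam2CSK4, 2.71 and 2.47 with TLR2.CD86, 2.70 and 2.71 with anti-CD40.Pam2CSK4, and 2.52 and 2.60 in unstimulated cells. Cd14 is known as a surface protein of monocytes, whose marker values stand above, and the part of such cells in its level was not tested.

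At the step that follows the IRAK kinases, Traf6, the ubiquitin ligase that IRAK1 recruits, rose with anti-CD40 by 0.73 (SE 0.11, adjusted p = 0.00724) and with anti-CD40.Pam2CSK4 by 0.92 (SE 0.11, adjusted p = 0.00164). Peli1, a ubiquitin ligase that acts on IRAK proteins, fell with TLR2.CD86, anti-CD40 and anti-CD40.Pam2CSK4, with log2 differences of -0.50, -0.88 and -1.23 (adjusted p = 0.0402, 0.00521 and 0.000712). The Peli1 call with TLR2.CD86 was made in 2 of 12 fits with 1 array left out, those without an anti-CD40 array (adjusted p up to 0.204 in the others). The TAK1 binding subunits Tab1, Tab2 and Tab3, listed on the array as Map3k7ip1, Map3k7ip2 and Map3k7ip3, and the kinase subunit Chuk did not pass among the 6 conditions (F adjusted p = 0.514, 0.213, 0.132 and 0.446). Map3k3, a kinase that can act on the IKK complex, rose with anti-CD86 by 0.77 (adjusted p = 0.0270) and TLR2.CD86 by 0.72 (adjusted p = 0.0145), and was -0.02 and 0.01 with anti-CD40 and anti-CD40.Pam2CSK4. Its call with anti-CD86 was made in 4 of 12 fits with 1 array left out, those without a TLR2.CD86 or an anti-CD40 array (adjusted p up to 0.215 in the others). Map3k8, the kinase Tpl2, rose with anti-CD40 and anti-CD40.Pam2CSK4 by 0.75 and 1.19 (adjusted p = 0.0248 and 0.00316).

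Of the 11 NF-kB and IkB genes, 7 were called among the 6 conditions (20.1% of all probes) and 7 rose with anti-CD40 (16.7% of all probes in either direction). Under the slide block 10 were called in each, beside 59.9% and 37.1% of all probes. Nfkbiz, a nuclear IkB protein, was the 1 gene of the pathway list called with Pam2CSK4 alone: it was 3.11 and 3.06 in unstimulated cells and 4.99 and 4.81 with Pam2CSK4, a difference of 1.81 (SE 0.14, adjusted p = 0.00494), and it rose by 2.41 with anti-CD40.Pam2CSK4. On slide 1 alone, with fewer arrays, this difference was 1.91 and did not pass (adjusted p = 0.124). Nfkbie, which encodes IkBε, rose by 0.52 with TLR2.CD86, 1.32 with anti-CD40 and 1.52 with anti-CD40.Pam2CSK4 (adjusted p = 0.0188, 0.000474 and 6.79e-05), and Nfkbid by 1.24, 1.61 and 2.27 (adjusted p = 0.0237, 0.00673 and 0.000954). Nfkbib rose by 0.90 and 1.52 with anti-CD40 and anti-CD40.Pam2CSK4 (adjusted p = 0.0216 and 0.00200) and Rel by 0.51 with anti-CD40 (adjusted p = 0.0353; -0.06 under median normalization). Nfkb1 was called as well, with its spot saturated on 3 arrays, and Nfkbia was saturated on all 12. Tnfaip3, the deubiquitinase A20, rose by 0.57 with anti-CD40 and 0.94 with anti-CD40.Pam2CSK4 (adjusted p = 0.0365 and 0.00445). With anti-CD40 its difference was 0.00419 under median normalization, and the call was made in 4 of 12 fits with 1 array left out, those without a Pam2CSK4 or a TLR2.CD86 array. That of Rel was made in 5 of 12, those without a Pam2CSK4 or a TLR2.CD86 array or without anti-CD40 replicate 2. With anti-CD40.Pam2CSK4 the calls of Tlr1, Traf6, Peli1, Map3k8, Nfkbiz, Nfkbie, Nfkbid, Nfkbib and Tnfaip3 were made in all 12 such fits.

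**Figure D4:**
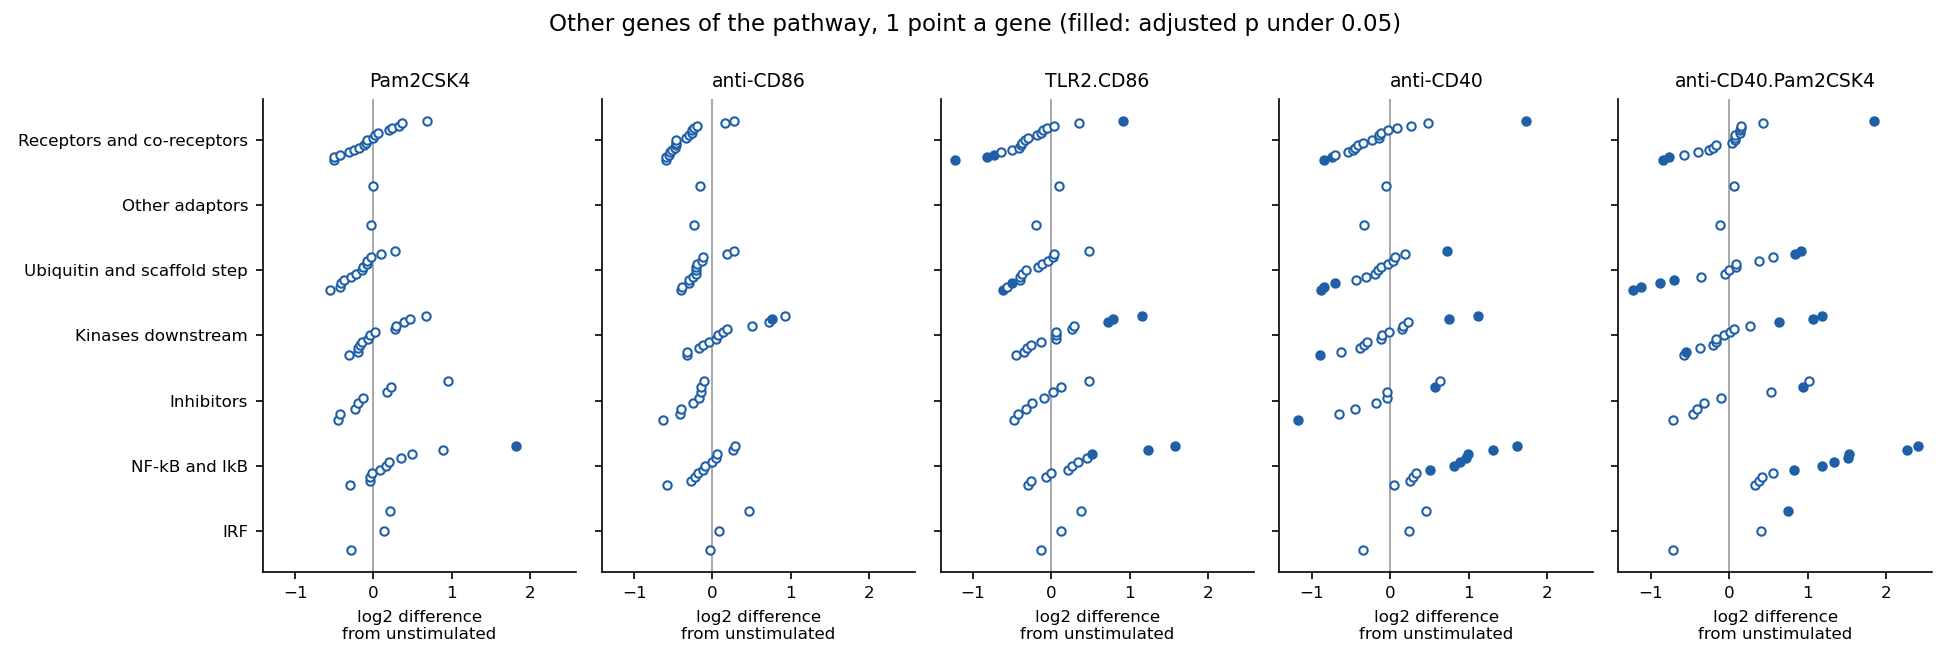
Log2 difference from unstimulated RB cells of the 67 other pathway genes that were tested, grouped by role, in the 5 stimulated conditions. Each point is 1 gene by its brightest probe, ordered within its group, and filled points have an adjusted p under 0.05 without a block. The NF-kB and IkB genes hold 7 filled points to the right of 0 with anti-CD40, beside 1 with Pam2CSK4.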

How the data were processed

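RNA of RB cells was hybridised to one-colour Agilent arrays, 12 in all, 2 for each of 6 conditions. The scanner files were deposited as read by Feature Extraction 10.5.1.1, with a background-corrected processed intensity for each spot. Their value table holds log2 values that the authors made from the same arrays: each array's column equals the log2 processed intensity minus 1 constant within 0.011 of the array's 75th percentile, so it served as an alternative. Here control and outlier spots were left out, spots of a probe were averaged, and the array's 75th percentile was subtracted from the log2 processed intensity. Probes that the scanner marked as well above background on the 2 arrays of any condition numbered 31669. Of these, 68 with a missing value on an array were left out, and 31601 were tested. Array intensities carry no read depth, and 2 arrays a condition limit the precision; between 46.6% and 60.6% of an array's spots passed that mark.

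Conditions were compared with limma 3.58.1 in R 4.3.3 (lmFit and eBayes, 1 coefficient a condition, 12 arrays, no block), with Benjamini-Hochberg adjustment over all probes tested and a threshold of 0.05. The difference among the 6 conditions is the moderated F test over their 5 coefficients. The script was tested on simulated data. Groups came from the sample titles. The methods name a one way test over the conditions, which was run without moderation of the variance as an alternative. Genes are named by the symbols in the scanner files. The text names the 10 members, a fixed set of 9 pathway genes, the 10 further pathway genes with the lowest adjusted p among the 6 conditions, and the 5 genes most like the member with the highest F. The members and lists were chosen with earlier results of these data known. Alternatives were median normalization, quantile normalization, the normexp background correction with an offset of 50, the authors' log2 values, no filter on dim probes, slide as a block, each slide alone, the replicate number as a block, the median over a gene's probes, and each array left out; the 2 comparisons between the antibodies, and quantile normalization with the slide block, were added after the data were seen. Fits without 1 array kept the same probes, and an array left alone in its condition was assumed to vary like the others.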

Additional observations from a re-analysis of the deposited data

How the results depend on the processing

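The results depend most on how slide and scale are treated. Counts below are members past the threshold. Without a block they were 2 among the 6 conditions, 1 each with TLR2.CD86, anti-CD40 and anti-CD40.Pam2CSK4 against unstimulated cells, 1 between anti-CD40.Pam2CSK4 and Pam2CSK4, 1 each in the 2 added comparisons of the antibodies, and 0 in the others. The authors' log2 values gave the same counts in all 14 comparisons, as did, among the 6 conditions, the methods' one way test without moderation (2). The slide block raised the count among the 6 conditions to 8; against unstimulated cells it was 7 with anti-CD86, 5 with TLR2.CD86, 6 with anti-CD40 and 6 with anti-CD40.Pam2CSK4; anti-CD40.Pam2CSK4 differed from Pam2CSK4 in 3 and from anti-CD40 in 2, anti-CD40 from anti-CD86 in 4, and anti-CD40.Pam2CSK4 from TLR2.CD86 in 3. In the same order, the block on quantile normalized values gave 7, 7, 6, 4, 6, 4, 2, 5 and 3, and 2 for Pam2CSK4 against unstimulated cells. On slide 1 alone the counts that moved were 4 among the 6 conditions, 3 with TLR2.CD86, 3 with anti-CD40 and 6 with anti-CD40.Pam2CSK4 against unstimulated cells, 2 between anti-CD40 and anti-CD86 and 3 between anti-CD40.Pam2CSK4 and TLR2.CD86. Over all probes the share called among the 6 conditions was 20.1% without a block, 59.9% with the slide block, 56.1% with the block on quantile normalized values, 33.6% on slide 1 alone, 3.22% under median normalization, 2.5% with no filter on dim probes and 37.3% with the replicate block, and it ran from 6.74% to 24.7% with 1 array left out. That share was 24% under quantile normalization without a block and 23.8% with the normexp correction. For single comparisons, shares of all probes were counted without a block and, against unstimulated cells, with the slide block. The other counts by comparison in this section have no such share beside them. They are not read as a result about the members. Slide 2 alone holds 1 array a condition and gives values with no test.

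Median normalization called no member in any comparison, so all 7 counts above 0 became 0, and the pathway list fell from 25 genes among the 6 conditions to 2 and from 22 with anti-CD40.Pam2CSK4 to 3. The log2 array median was below the lowest level counted as well above background in unstimulated replicate 2 (4.38 against 4.74). It was above that level in anti-CD40 replicate 2 (5.68 against 4.79). The part of this in the lost calls was not tested. Median normalization shifted the median of all probes by -0.57 with anti-CD40 and by -0.29 with TLR2.CD86 relative to the values reported. Under it the signs turned for Myd88 with TLR2.CD86 (-0.0553) and anti-CD40 (-0.406), Irak1 with TLR2.CD86 (-0.194), Irak4 (-0.106), Map3k7 (-0.345) and Ikbkb (-0.378) with anti-CD40, and Rel with anti-CD40 (-0.0587). Anti-CD40 replicate 2 had the highest median of all arrays in the authors' log2 values, at -2.80. Anti-CD40 replicate 1 was at -3.83, and the arrays of the other conditions lay between -3.94 and -3.41. The part of that 1 array in these turns was not tested. Quantile normalization turned Irak4 (-0.12) and Map3k7 (-0.00741) with anti-CD40, and gave 4 among the 6 conditions, 2 with anti-CD86, 3 with anti-CD40 and 2 with anti-CD40.Pam2CSK4 against unstimulated cells, 0 between anti-CD40.Pam2CSK4 and Pam2CSK4 and 2 between anti-CD40 and anti-CD86. The normexp correction gave 3 with anti-CD86, 2 with anti-CD40 and 2 with anti-CD40.Pam2CSK4 against unstimulated cells, 0 between anti-CD40.Pam2CSK4 and Pam2CSK4 and 3 between anti-CD40 and anti-CD86. With no filter on dim probes, which adjusts over more probes, the counts became 0 among the 6 conditions, with TLR2.CD86, with anti-CD40, between anti-CD40.Pam2CSK4 and Pam2CSK4 and between anti-CD40.Pam2CSK4 and TLR2.CD86. The median over probes gave 1 among the 6 conditions and 0 with TLR2.CD86 and anti-CD40.Pam2CSK4 against unstimulated cells and between anti-CD40.Pam2CSK4 and Pam2CSK4. Where not stated above, the cause was not tested.

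Replicate numbers are shared across conditions. Deviations of same-numbered arrays from their condition means correlated at 0.54 to 0.67 among the 4 conditions where the number is also the slide. With unstimulated or anti-CD40.Pam2CSK4, whose arrays share slide 1, they correlated at -0.107 to 0.067. In those 4 conditions a pairing of the samples by number and the slide cannot be told apart. The replicate block gave 2 members with anti-CD40 and 3 with anti-CD40.Pam2CSK4 against unstimulated cells, and 2 between anti-CD40.Pam2CSK4 and Pam2CSK4, and the other counts did not change.

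Leaving out 1 array at a time gave 0 to 3 members among the 6 conditions, 0 to 1 with TLR2.CD86, 0 to 3 with anti-CD40 and 1 to 3 with anti-CD40.Pam2CSK4 against unstimulated cells, 0 to 1 between anti-CD40.Pam2CSK4 and Pam2CSK4, and 0 to 1 in both added comparisons. The count among the 6 conditions was 0 without anti-CD40.Pam2CSK4 replicate 2. The difference of Myd88 and of Map3k7 between anti-CD40 and unstimulated cells ran from -0.0035 to 0.325 and from -0.0116 to 0.455, the lowest without anti-CD40 replicate 1, and that of Irak1 with TLR2.CD86 from -0.0827, without TLR2.CD86 replicate 1, to 0.269. The difference of Irak3 between anti-CD40 and anti-CD86 ran from -1.49 to -0.89 over its 22 alternatives with a test and passed in 20, with adjusted p from 0.000153 to 0.128, and that between anti-CD40 and unstimulated cells from -1.35 to -0.62, passing in 17. Irak4 with anti-CD40.Pam2CSK4 ran from 0.395 to 1.32 over 22 and passed in 19. Dim signal limits Irak4 and Ikbkg, whose brightest probes reached -3.52 and -3.48, where the lowest level counted as well above background was between -4.22 and -3.44. It also limits the dimmest Irak3 probe, which reached -3.52.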
